A study of Mus musculus with 30 samples.

Results

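Lung was compared with the other 14 tissues of a panel of adult mouse organs. Its members were the 2 arrays that the labels assign to lung, out of 30 arrays for 15 tissues with 2 arrays each, and the other tissues were stomach, small intestine, large intestine, liver, heart, muscle, kidney, bladder, fat, bone, skin, eyes, brain cortex and cerebellum. All tissues came from male C57BL/6 mice, labelled adult and 28 weeks old, with no treatment named, although the methods of the study give a slightly different age. Pieces of tissue were washed, frozen and extracted whole with TRIzol, so each value is an average over all the cells of the piece. The series description says that the replicates were different animals except for bone and fat, which it describes as 1 replication. The methods of the study give 2 replications from different animals and name no such exception. The labels, too, give each of those tissues a pair of arrays. The sources thus differ, and what the spread within such a pair covers is unclear. P-values measure the spread between these samples only. Each two-colour array carried tissue RNA in Cy3 and, in Cy5, a common reference that pools RNA of mouse cell lines, a lung macrophage line among them, with RNA of embryonic stem (ES) cells. A level is therefore log2(Cy3/Cy5): 0 means as much signal as the reference, and levels compare 1 probe across tissues, never 1 gene with another.

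The lung exchanges gas across a thin wall of alveolar epithelium and capillary endothelium. Its airways are lined by secretory cells, which detoxify inhaled compounds and coat the surface, and by multiciliated cells, whose beating axonemes, bundles of microtubule doublets driven by dynein arms, clear the mucus. Macrophages patrol the air spaces, and an elastic matrix lets the organ stretch and recoil.

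A probe counted as called when the limma test of lung against the mean of the other 14 tissues gave a Benjamini-Hochberg adjusted p under 0.05 and a log2 difference of at least 1 in size. Of 21025 probes tested, 2527 (12.0%) were higher in lung and 1589 (7.56%) were lower, and the median difference of all probes was -0.10. Calls in the higher direction were thus 61.4% of all calls, and they were 77.8% with median centring of each array in place of loess, where the median difference of all probes was 0.03. The count of lower probes depended on the scaling, from 806 with median centring to 2610 with the processed signals and no loess. That of higher probes ran from 2272 with the Cy3 level alone to 3267 with the authors' value table. Counts of genes under another scaling are read against these. In 711 probes (3.38%) the gene was called higher with both lung arrays above all 28 other arrays, and in 231 (1.10%) it was called lower with both lung arrays below them. The lung arrays resembled each other closely (Pearson r 0.97 across probes, median size of the difference between them 0.17). Only 5049 of the tested probes (24.0%) have a symbol, and 35 of the 50 probes with the largest difference have none. Of the 5049, 391 (7.74%) were higher and 325 (6.44%) lower. All members of the gene lists have a symbol, so these shares are a background for them beside those of all probes. The label could be checked only in part, because the surfactant proteins, Scgb1a1 and most other defining genes of the lung epithelium have no named probe here. Of the alveolar list, 3 genes were measured. Prdx6, an antioxidant enzyme that also takes part in surfactant lipid turnover, had levels of 2.64 and 3.03 on the lung arrays against at most 2.26 elsewhere, a difference of 2.53. Igfbp2, an insulin-like growth factor binding protein, rose by 2.60, but its levels of 1.66 and 1.49 in lung were below those of bladder (2.91 and 2.78) and liver (2.17 and 2.12). Abca3, the lipid transporter of surfactant-storing organelles, had a difference of 0.81 and was not called. Its levels of 1.64 and 1.51 in lung were below those of kidney (2.08 and 2.20) and large intestine replicate 2 (1.71). All 3 genes were nevertheless called higher under median centring or when Cy3 levels were used alone.

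The 20 named genes with the largest rise among those above all other arrays included Fam183b, Cdhr3 and Cfap299 of the axoneme list used for the gene groups, and 7 that have only a RIKEN name. The log2 differences of the 19 described here ran from 4.04 to 6.05, that is 16.5-fold to 66.5-fold as measured, and 18 of the 20 were past the threshold against each of the 14 tissues. The exceptions were Cavin2 and 1700016K19Rik, which were past it against 13. In 8 of the 20, neither array was well above background in 8 or more of the other tissues, so the mean of the other tissues rests partly on background signal and such a difference is no exact fold. In bulk RNA, more or fewer cells of a type and more or less RNA per cell cannot be told apart.

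1600029I14Rik, which has no other name here, had levels of 6.26 and 6.89 in lung, against -0.18, 0.19 and 4.34 as the lowest, median and highest of the other arrays. Its difference was 6.05 (SE 0.54, adjusted p = 5.75e-08). The single high array outside the lung was fat replicate 1, at 4.34, where fat replicate 2 was at 0.06. Fam162b stood at 5.11 and 5.42 in lung and reached at most 1.49 elsewhere, on a stomach array, with a difference of 5.36 (SE 0.12, adjusted p = 4.11e-16). In 10 of the 14 other tissues it was not well above background on either array, so the difference is one from background there.

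Fam183b, a gene of the ciliary axoneme, had levels of 4.0 and 4.89 in lung and of -2.99, -1.15 and 1.84 as the lowest, median and highest elsewhere. The difference was 5.34 (SE 0.48, adjusted p = 6.81e-08). Spaca9, a protein of cilia and of the sperm acrosome, had 2.62 and 3.62 against a median of -2.22 and a highest array of 1.77, a difference of 5.03. Neither gene overlapped between lung and the other arrays, and in both the highest other array was fat replicate 1.

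Cdhr3, a cadherin of ciliated airway cells and the receptor of rhinovirus C in people, stood at 4.42 and 5.12 in lung. Over the other arrays its lowest level was -0.27, its median 0.02 and its highest 2.31. The difference was 4.58 (SE 0.30, adjusted p = 1.13e-09), and in 10 tissues the gene was not well above background on either array. Pifo, a ciliary protein, had 4.27 and 5.12 against a median of -0.27 and a highest of 2.21. Cfap299, a cilia and flagella associated protein, had 3.90 and 4.62 against a median of -0.17 and a highest of 2.10. Hoatz, another cilia and flagella protein, had 2.45 and 3.38 against a median of -1.75 and a highest of 0.19, in fat replicate 1. Efcab10, an EF-hand protein, had 3.73 and 4.62 against a median of -0.94 and a highest of 2.43, in brain cortex.

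Il18r1, Dram1 and Cavin2 are known for other roles. Il18r1, the receptor chain that binds interleukin 18, had 5.46 and 6.03 in lung against a median of 0.60 and a highest of 3.0, which was a bladder array, and its difference was 4.92 (SE 0.26, adjusted p = 5.56e-11). Dram1, a lysosomal membrane protein linked to autophagy, had 3.95 and 3.90 against a median of -0.41 and a highest of 3.22, in fat replicate 2. Cavin2, a coat protein of caveolae, had 3.68 and 3.31 against a median of -0.88 and a highest of 2.94, also in fat replicate 2. All 3 were above every other array. The remaining 7, of which 6 have only a RIKEN name and the other is Fam166c, had differences of 4.11 to 4.79.

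The arrays of fat differed from each other in these genes. Fat replicate 1 was above fat replicate 2 by at least 1 on the log2 scale in 15 of the 20 genes, with a median of 2.15, against 2779 of 21006 probes and a median of -0.02 over all probes. The difference between lung and fat in these genes therefore rests on both fat arrays as they are, and every one of the 20 was still called with either fat array left out.

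**Figure D1:**
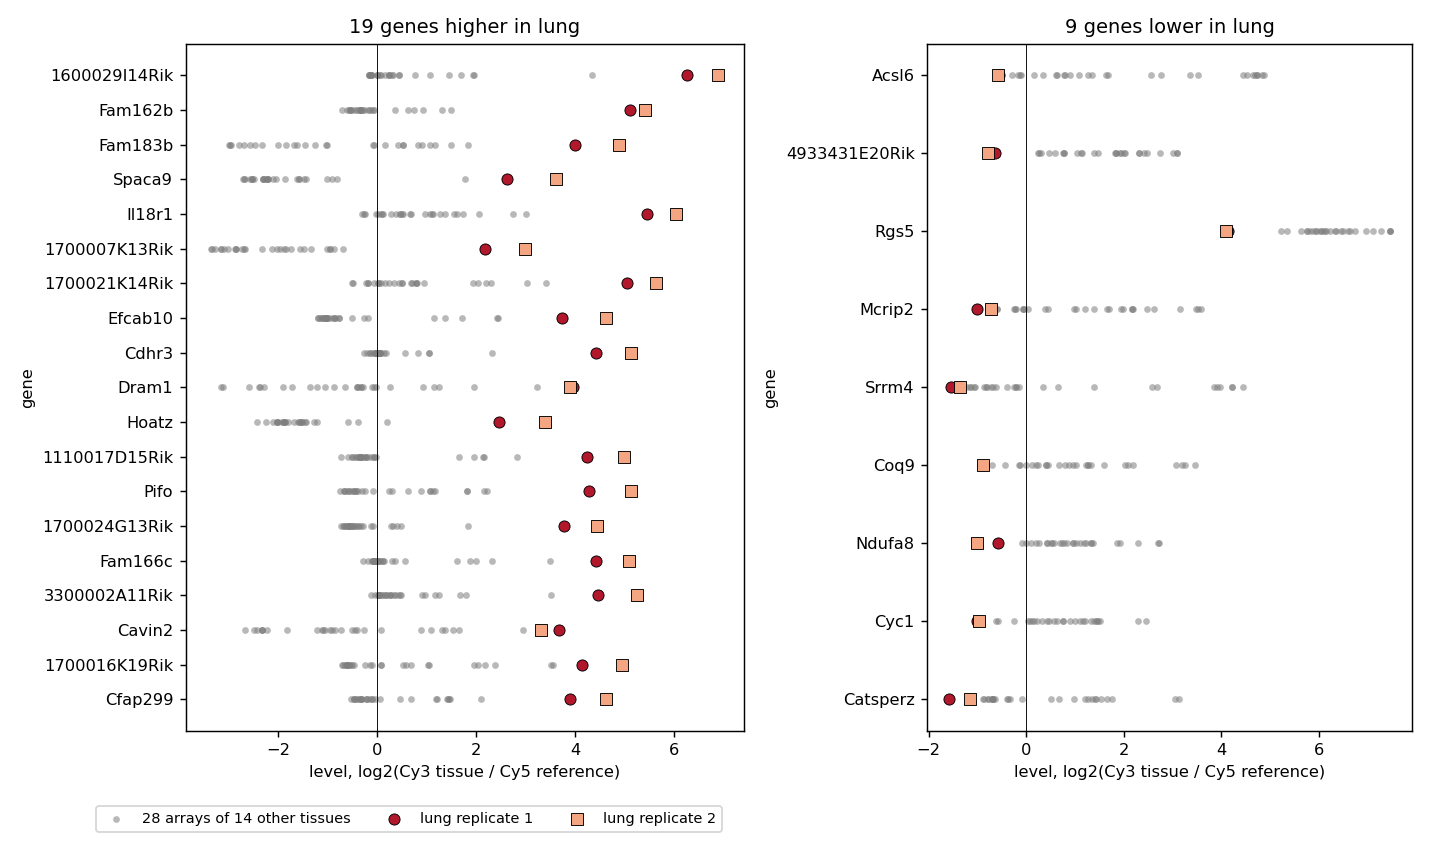
Levels, log2(Cy3/Cy5) on the horizontal axis, of 19 of the 20 genes higher and 9 of the 10 genes lower in lung, with lung replicate 1 (circles), lung replicate 2 (squares) and the 28 other arrays (grey points). In every row the lung symbols lie outside the grey points, and in 17 of the 19 rows on the left lung replicate 2 lies above replicate 1.

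Genes of the motile axoneme were higher as a group. Of 31 listed genes with a probe, 28 passed the filter on low signal, and 22 of them were higher in lung, none lower, with a median difference of 2.54. The background for all probes is 12.0%. In 15 of the 28 the gene was called higher with both lung arrays above all other arrays, against 3.38% of all probes. All 18 gene lists were chosen with earlier results of these data known, and a member that passed the filter through lung alone had to be high there. The counts of this and the other lists therefore describe their genes only. Under each of 5 ways of scaling the arrays, 20 to 25 of the 28 were called higher and none lower.

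Structural parts of the axoneme and the factors that build it were both among the 22. Enkur, which lies inside the microtubule doublets, had levels of 3.48 and 4.33 in lung and of at most 2.01 elsewhere, a difference of 3.55 (SE 0.36). Cfap161, also a doublet protein, had 2.62 and 3.10 against at most 0.83, a difference of 3.64 (SE 0.21). Both were past the threshold against each of the 14 tissues.

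Dnah7a, a heavy chain of the inner dynein arm, had 2.96 and 3.79, but eyes reached 3.36 and overlapped with lung. Its close relative Dnah7b had 0.58 and 0.69 and was not called, and whether such similar transcripts shared signal on these probes was not tested. Dnaaf3, which helps to assemble dynein arms, had 1.42 and 2.20, with heart reaching 2.36. Rsph9, a head protein of the radial spokes, had 3.19 and 3.72 against at most 3.13, on a kidney array. Cfap57 had 4.86 and 4.54 in skin and 3.86 and 4.68 in lung, so these tissues overlapped. Cfap69 was at 2.35 and 2.44 in stomach, above both lung arrays (1.76 and 2.15).

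The 6 axoneme genes that were not called were Cfap300 (difference 0.72), Dnah7b (0.50), Nme7 (0.22), Cfap77 (0.19), Ankrd45 (0.15) and Cfap74. Cfap74 differed between the lung arrays themselves, at -0.03 and 1.19. Genes of cilium assembly and transport, which serve primary cilia of most cells as well as motile ones, were called higher in 4 of 20 cases (12.0% of all probes) and lower in none, with a median difference of 0.32, or 0.52 with median centring. The difference between these lists was not tested. The 4 were Traf3ip1 (difference 2.14, above all other arrays), Ift74 (1.22), Ift57 (1.19) and Cep83 (1.18), of which Traf3ip1, Ift74 and Ift57 belong to the intraflagellar transport machinery.

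**Figure D2:**
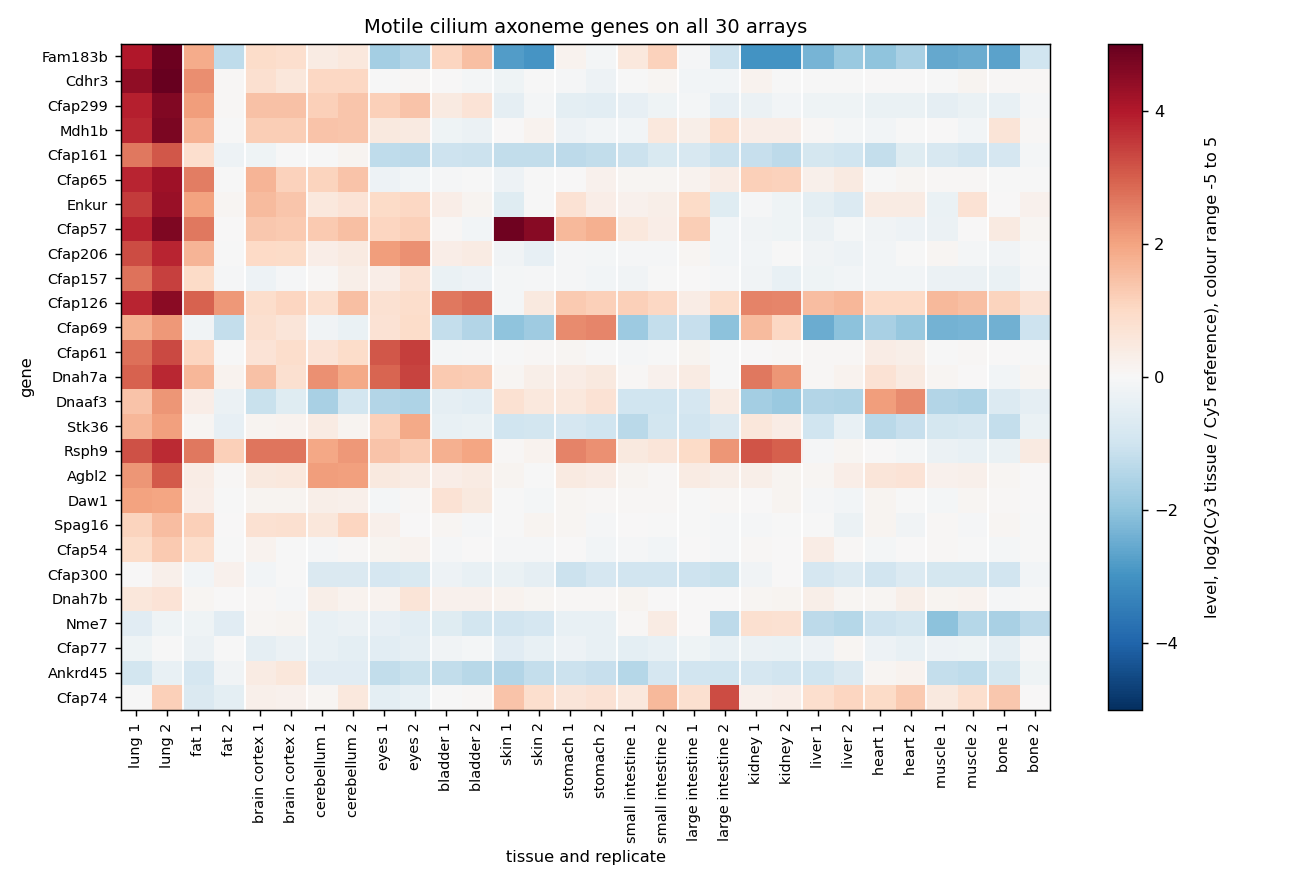
Levels, log2(Cy3/Cy5) as colour, of 27 of the 28 tested axoneme genes (rows, ordered by the difference between lung and the other tissues) on all 30 arrays (columns, by tissue and replicate). The lung columns are red in the upper rows, fat replicate 1 is redder than fat replicate 2, and Cfap57 is also high in both skin arrays.

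The median level of the axoneme list was 2.66 and 3.20 on the lung arrays. The next array was fat replicate 1, at 1.0, while fat replicate 2 was at -0.01. Brain cortex followed with 0.59 and 0.57 and cerebellum with 0.37 and 0.48. In the direct comparisons between lung and a single tissue, 18 (eyes) to 24 (muscle) of the 28 genes were higher in lung, where 13.2% and 21.1% of all probes were.

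Promoters were searched for the X-box, the element that RFX factors, known regulators of ciliary genes, bind. RefSeq promoters of GRCm38.p6, which run from 250 bases before to 50 bases after the start, were found for 23 of the 28 tested axoneme genes and for 14 of the 20 leading genes. Both strands were searched. The full X-box consensus, a palindrome, was in 0 of the 23 axoneme promoters and in 143 of 27025 genes overall (0.529%), and a form with fixed letters was in 1, Cfap74, and in 0.633% of all genes. Among the leading genes Pifo held the full consensus. A shorter form, GTTGCC, which can overlap both of the others, was searched after these counts were known. It was in 13 of the 23 axoneme promoters (56.5%), in 7 of the 14 leading ones, in 8 of 19 for cilium assembly (42.1%), in 5 of 44 for oxidative phosphorylation (11.4%), in 0 of 27 for the extracellular matrix and in 14.1% of all genes. Among the axoneme genes it did not follow the call: 9 of 17 higher genes with a promoter held it, and so did Nme7, Dnah7b, Cfap300 and Cfap74, which were not called. A match is a description of letters and not a binding site.

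The promoters of 5 genes that held a match and were above all other arrays in lung are given to show where the letters lie, 5′ to 3′ on the strand of the gene, with each match in capitals (the full consensus in Pifo, GTTGCC or its reverse complement in the others). They are Pifo (chr3:106001448-106001747, minus strand), Fam183b (chr11:58801911-58802210, minus strand), Spaca9 (chr2:28699602-28699901, minus strand), Cdhr3 (chr12:33092826-33093125, minus strand) and Cfap161 (chr7:83794790-83795089, minus strand). Counted from the start, the matches began at -20 in Pifo, -67 and -16 in Fam183b, -104 in Spaca9, -6 in Cdhr3 and -66, -59 and -39 in Cfap161.
Pifo: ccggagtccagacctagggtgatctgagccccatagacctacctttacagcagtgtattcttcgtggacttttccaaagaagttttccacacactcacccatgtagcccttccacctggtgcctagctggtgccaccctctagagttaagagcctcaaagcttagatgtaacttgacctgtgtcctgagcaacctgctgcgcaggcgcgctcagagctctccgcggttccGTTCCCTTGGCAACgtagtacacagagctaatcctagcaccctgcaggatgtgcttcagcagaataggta
Fam183b: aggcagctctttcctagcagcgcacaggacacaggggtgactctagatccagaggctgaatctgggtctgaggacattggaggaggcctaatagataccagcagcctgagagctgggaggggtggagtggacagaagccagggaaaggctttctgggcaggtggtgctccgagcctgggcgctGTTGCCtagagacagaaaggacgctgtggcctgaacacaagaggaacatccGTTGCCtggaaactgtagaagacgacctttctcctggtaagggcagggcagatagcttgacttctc
Spaca9: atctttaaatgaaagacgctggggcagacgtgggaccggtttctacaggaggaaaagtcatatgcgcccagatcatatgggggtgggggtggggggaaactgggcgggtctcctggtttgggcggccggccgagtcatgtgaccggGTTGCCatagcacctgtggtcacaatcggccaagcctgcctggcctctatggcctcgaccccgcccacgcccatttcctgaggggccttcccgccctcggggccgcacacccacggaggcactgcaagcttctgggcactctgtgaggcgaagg
Cdhr3: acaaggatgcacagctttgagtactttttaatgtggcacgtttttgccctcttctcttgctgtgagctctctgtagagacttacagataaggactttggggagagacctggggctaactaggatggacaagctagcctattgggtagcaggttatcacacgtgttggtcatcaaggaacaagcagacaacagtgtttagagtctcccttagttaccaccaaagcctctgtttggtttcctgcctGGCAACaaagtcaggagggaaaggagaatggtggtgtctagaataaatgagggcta
Cfap161: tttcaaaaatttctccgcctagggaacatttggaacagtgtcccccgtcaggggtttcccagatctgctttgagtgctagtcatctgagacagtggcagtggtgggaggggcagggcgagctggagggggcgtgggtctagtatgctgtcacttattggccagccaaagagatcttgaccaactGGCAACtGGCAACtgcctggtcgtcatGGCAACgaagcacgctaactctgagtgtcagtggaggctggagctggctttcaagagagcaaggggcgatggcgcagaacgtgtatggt

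Of 8 tested flavin monooxygenases and aldehyde oxidases, enzymes that oxidise foreign compounds, 5 were higher in lung and 1 was lower, with a median difference of 1.86 (12.0% and 7.56% of all probes were higher and lower). Against liver alone their median difference was -0.39. Fmo2, known as the pulmonary form, had levels of 4.22 and 5.04 and a difference of 1.87 (SE 0.35, adjusted p = 2.86e-04), with a kidney array reaching 4.46. Fmo1 had 4.61 and 5.02 and a difference of 2.01, with liver reaching 5.33. Fmo4 had a difference of 0.02 and was not called.

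Aox3, an aldehyde oxidase, had 7.41 and 7.68 in lung, below liver at 9.33 and 9.28, and a difference of 5.19 (SE 0.22). It was higher in lung than in 13 tissues and lower than in 1. Aox1 rose by 1.85 to 3.03 and 3.07, with liver and fat replicate 2 (3.71) above lung and heart (3.03 and 3.04) overlapping with it, whereas Aox4 fell by 1.14 and was highest in stomach. In the airway secretory list 2 of 6 genes were higher (12.0% of all probes). Its median difference was 0.35, between 0.02 with the Cy3 level alone and 1.32 with the processed signals, and it was -0.67 against stomach and -0.94 against large intestine. Cbr2, a carbonyl reductase abundant in lung, had 4.07 and 4.86 in lung, and its lowest, median and highest levels elsewhere were -2.66, 1.22 and 3.68. The lung arrays were above all others, and the difference was 3.93 (SE 0.32, adjusted p = 1.75e-08). Slc26a9, an epithelial anion transporter, had 2.46 and 1.55, with stomach higher at up to 4.47.

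Endothelial genes were higher in 11 of 15 cases (12.0% of all probes) and lower in none, and 5 of the 15 were above all other arrays (3.38%). Cavin2, which is also among the 20 leading genes, is in this list, so the count describes these genes only. The median difference was 1.22, and 2.53 with the Cy3 level alone. Sox17, a transcription factor of arterial endothelium, had levels of 5.45 and 5.90 in lung against a median of 3.23 and a highest of 4.57, in heart. Acvrl1 and Bmpr2, receptors of the bone morphogenetic protein pathway in vessels, had 4.53 and 4.73 against at most 3.64, and 2.10 and 2.26 against at most 1.65. Their differences were 2.35 (SE 0.20, adjusted p = 3.95e-08) and 2.07 (SE 0.12, adjusted p = 2.17e-10). Tm4sf1, a membrane protein of endothelium, had 1.17 and 0.67 against at most -0.03.

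Other genes of the list had levels as high or higher outside the lung. Afap1l1 had 5.12 and 5.06 in lung and up to 5.22 in heart. Ace, the angiotensin-converting enzyme of the capillary surface, had 2.72 and 3.28, and small intestine reached 3.71. The adhesion molecules Sele and Selp, which endothelium makes when activated, had differences of 0.01 and 0.40 and were not called. The median level of the list was 2.10 and 2.26 on the lung arrays, above those of fat (1.47 and 1.62), heart (1.57 and 1.32) and bladder (1.29 and 1.16). Against heart alone 4 of the 15 genes were higher and 2 lower in lung (14.6% and 11.3% of all probes), and against stomach 12 were higher (12.2%).

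The extracellular matrix list had 22 of 36 genes higher and 1 lower (12.0% and 7.56% of all probes), with a median difference of 1.20. Hmcn1, hemicentin 1 of basement membranes, had levels of 4.88 and 4.99 in lung, with -0.11, 0.76 and 3.76 as its lowest, median and highest levels elsewhere. Adamts8, a secreted metalloproteinase, had 4.38 and 4.71, with -0.36, 0.88 and 3.01 elsewhere. Both were above all other arrays and past the threshold against each of the 14 tissues, with differences of 3.89 (SE 0.17) and 3.61 (SE 0.31). Adamts10 and Adamtsl2, which bind fibrillin microfibrils, were also called and rose by 1.61 and 1.40.

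Col4a3 and Col4a4, the collagen chains shared by the basement membranes of alveolus and glomerulus, had differences of 2.28 and 1.37. Kidney reached 3.64 and 2.0 and overlapped with or exceeded the lung arrays at 3.16 and 3.0, and 0.74 and 0.56. The fibrillar collagen Col3a1 (difference 0.89, adjusted p = 0.12) and fibronectin, Fn1 (0.74, adjusted p = 0.25), were not called. Against bladder the median difference of the list was 0.15 and against skin 0.09. Against skin 11 of 36 genes were higher and 4 lower in lung (11.7% and 10.4% of all probes), whereas against liver 27 were higher (18.7%).

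**Figure D3:**
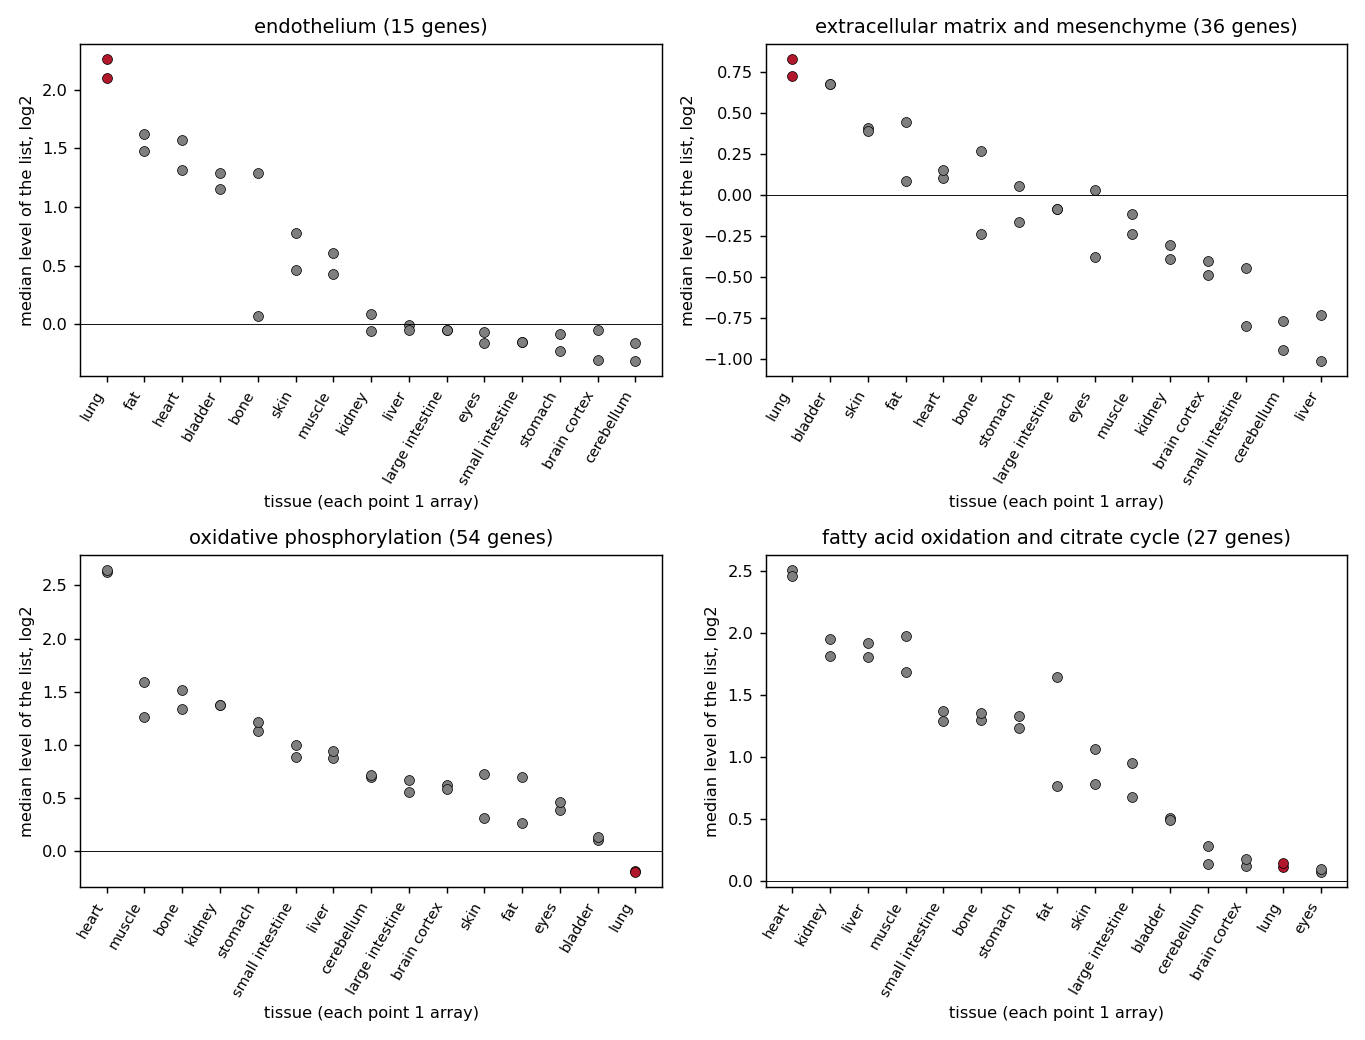
Median level, log2(Cy3/Cy5) on the vertical axis, of 4 gene lists on each of the 30 arrays, 1 point per array and tissues ordered by their mean. The lung points (red) are highest for endothelium (2.10 and 2.26) and extracellular matrix and lowest for oxidative phosphorylation (-0.19 and -0.18).

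Immune genes were higher in part: 10 of 23 myeloid and 9 of 26 lymphoid genes were higher and none lower, with medians of 0.79 and 0.78 (12.0% of all probes were higher). The myeloid list was not highest in lung alone. Its median level was 0.90 and 0.28 on the lung arrays and 0.89 and 0.30 on those of bone, and its median difference was -0.17 against bone and 0.01 against fat. Marco, the scavenger receptor of alveolar macrophages and of some liver macrophages, had levels of 3.84 and 4.17 in lung, with liver at 6.37 and 4.35 and fat at 2.06 and 2.29. It was higher than in 13 tissues and lower than in liver. Chil1, a chitinase-like protein of macrophages, had 3.14 and 3.53 against at most 2.37, and its difference was 2.83 (SE 0.13, adjusted p = 7.67e-12). Mpeg1, the pore-forming protein of macrophages, had 2.50 and 2.03 against at most 1.71.

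Among lymphoid genes, Il18r1 led and was followed by Fcrla, a protein of B cells, with 3.89 and 2.74 in lung against at most 2.39. Ptprc, the common leukocyte antigen CD45, had 1.24 and -0.12, with bone reaching -0.04, and its difference was 2.68 (SE 0.28). Trem2, Acp5 and Fcgr4 had differences of 0.0, 0.02 and 0.14 and were not called. With the processed signals or the authors' table in place of loess, 17 of the 26 lymphoid genes were called higher and 1 lower, with medians of 1.77 and 1.86. Over all probes, 3248 and 3267 were then higher and 2610 and 2510 lower, against 2527 and 1589 with loess.

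The lung arrays differed from each other by list. Lung replicate 2 was above replicate 1 in 27 of the 28 axoneme genes, with a median of 0.55, and in 5 of the 23 myeloid and 4 of the 26 lymphoid genes, with medians of -0.35 and -0.33. Over all probes the median was 0.01 and 51.3% were higher on replicate 2. Single genes differed by more: Cxcr2, a chemokine receptor of neutrophils, had 2.44 and 0.60 in lung, and Rgs1 had 0.16 and -1.49. With median centring in place of loess the median over all probes was -0.64 and those of the axoneme, myeloid and lymphoid lists were -0.18, -1.25 and -0.98, so the axoneme list turned its sign but stayed above the others. The difference was not tested, and the animal, the slide and the scan day, which all differ between the lung arrays, cannot be told apart.

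**Figure D4:**
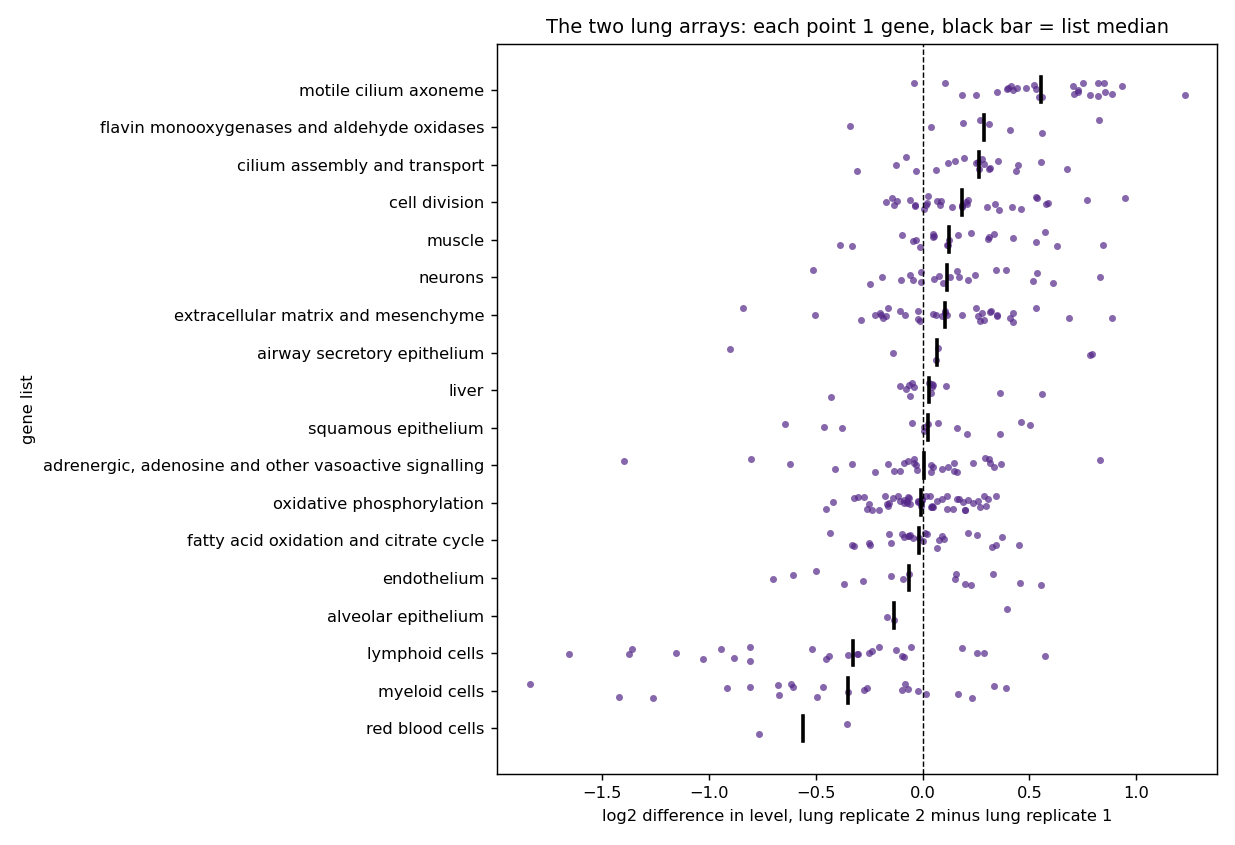
Difference in level between the lung arrays, replicate 2 minus replicate 1 in log2 on the horizontal axis, for the tested genes of each list (points) with the list median (black bar). The axoneme list lies to the right (median 0.55) and the myeloid and lymphoid lists lie to the left (medians -0.35 and -0.33).

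Of 30 tested genes of adrenergic, adenosine and other vasoactive signalling, 9 were higher and 2 lower, where 12.0% and 7.56% of all probes were. The median difference was 0.35, between 0.13 with the Cy3 level alone and 0.61 with the processed signals. Among the receptors, Adrb1, the β1-adrenergic receptor, had levels of 5.88 and 6.03 in lung against -0.12, 1.59 and 5.43 as the lowest, median and highest of the 26 other arrays with a value. Fat replicate 1 and muscle replicate 1 had none and were left out of its fit. Both lung arrays were above brain cortex (5.43 and 5.16) and heart (5.37 and 5.27), and the difference was 3.84 (SE 0.11, adjusted p = 2.95e-13).

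The angiotensin receptor Agtr1a had 3.05 and 3.17, below liver at up to 5.94, and rose by 1.27. Adcy8, an adenylyl cyclase best known from neurons, had 4.10 and 4.93 in lung, next to cerebellum (4.76 and 4.75), and fat replicate 1 reached 5.41 where fat replicate 2 was at 0.04. The α2-adrenergic receptor Adra2b fell by 1.49. It was not well above background in lung, which was at least 266-fold below kidney. The adenosine receptors Adora2a and Adora2b had differences of 0.34 and 0.63, and the prostaglandin synthase Ptgs2 one of 1.04 (adjusted p = 0.24), and none was called.

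Falls were smaller than rises. The 10 named genes with the largest fall among those below all other arrays had differences of -1.73 to -2.72. Acsl6, an acyl-CoA synthetase of brain and muscle, had levels of -0.56 and -0.57 in lung against -0.28, 1.49 and 4.89 as the lowest, median and highest elsewhere, and fell by 2.72 (SE 0.35, adjusted p = 4.88e-06). It was well above background on only 1 of the lung arrays, so its lung level is partly background. Rgs5, a regulator of G protein signalling known as a marker of pericytes, had 4.14 and 4.10 in lung and 5.23, 6.20 and 7.47 elsewhere. It fell by 2.22 (SE 0.21, adjusted p = 1.07e-07) and was the only one of the 10 past the threshold against each of the 14 tissues.

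Srrm4, a splicing factor of neurons, was not well above background on either lung array, and lung was at least 42.1-fold below brain cortex. Coq9, needed for the synthesis of coenzyme Q, had -0.88 and -0.89 in lung against at most 3.47, in muscle, and fell by 1.98. 4933431E20Rik, Mcrip2 and Catsperz fell by 2.32, 2.15 and 1.73.

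Subunits of the respiratory chain and ATP synthase were lower as a group. All 54 had a difference below 0, 36 were called lower, where 7.56% of all probes were, and none was called higher (median difference -1.19, with -0.10 over all probes). In 23 of the 54 the gene was called lower with both lung arrays below all other arrays, against 1.10% of all probes. Ndufa8, of complex I, had levels of -0.58 and -1.0 in lung against -0.09, 0.90 and 2.73 as the lowest, median and highest elsewhere, and fell by 1.79 (SE 0.17, adjusted p = 1.61e-07). Cyc1, the cytochrome of complex III, had -1.0 and -0.96 against -0.62, 0.75 and 2.45 and fell by 1.76. Under each of 5 ways of scaling the arrays, 35 to 42 of the 54 were lower and none higher.

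The complexes shared the fall. In complex I, which takes electrons from NADH, 20 of 27 subunits were lower (median difference -1.27). In complex II 3 of 3 were lower (-1.18), in complex III 3 of 7 (-0.98), in complex IV 4 of 5 (-1.27) and in the ATP synthase 6 of 12 (-1.03), where 7.56% of all probes were. The smallest differences were those of Atp5j (-0.01), Cox8a (-0.19) and Ndufc2 (-0.22), which were not called. The median level of the list was -0.19 and -0.18 on the lung arrays, lower than on all other arrays. Bladder came next, at 0.11 and 0.13, and heart was highest, at 2.63 and 2.64.

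Against heart 53 of the 54 genes were lower in lung, where 11.3% of all probes were. Against kidney and bone 47 were lower (12.0% and 10.7%) and against skin 11 (10.4%). Against bladder the limma test called 0 of them lower (6.36%) with a median difference of -0.40, although 22 had an unadjusted p under 0.05 and 15 an adjusted p under 0.05 at a smaller size. In fatty acid oxidation and the citrate cycle 14 of 27 genes were lower and 1 higher (7.56% and 12.0% of all probes), with a median difference of -1.0. The median was above 0 against brain cortex (0.58), cerebellum (0.30) and eyes (0.17). Mdh1, a malate dehydrogenase, had 0.18 and 0.20 in lung against at most 3.84, in heart, and fell by 1.82, and Idh3a and Suclg1 of the citrate cycle fell by 1.59 and 1.37. Acot1, an acyl-CoA thioesterase, rose by 1.61. The count of lower genes in this list was 6 with median centring in place of loess and 14 or 15 with the other scalings, and its lung levels were not the lowest, since eyes were at 0.07 and 0.10 and lung at 0.15 and 0.11.

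**Figure D5:**
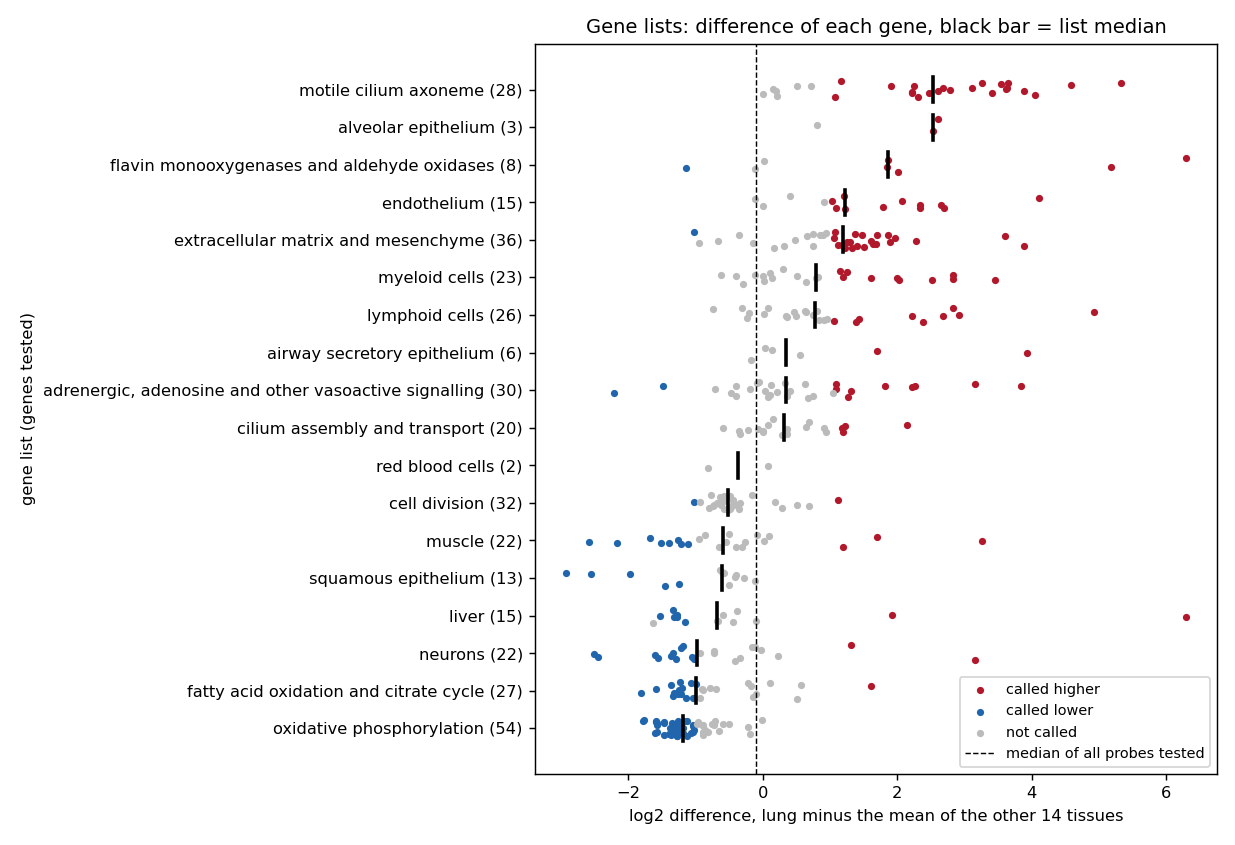
Log2 difference between lung and the mean of the other 14 tissues (horizontal axis) of each tested gene of 18 lists, with the list median as a black bar and the median of all probes (-0.10) as a dashed line. The axoneme points lie to the right (22 of 28 called higher) and the oxidative phosphorylation points to the left (36 of 54 called lower).

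Lists of genes that mark other organs are read against 7.56% of all probes lower and 12.0% higher. Of neuronal genes, 11 of 22 were lower and 2 higher (median difference -0.98), with 6 lower under median centring, and Scg2 and Rbfox1 fell by 2.51 and 2.45. Of liver genes 6 of 15 were lower and 2 higher, and the higher genes of both lists were close in share to all probes. The neuronal median was -4.10 against brain cortex and -3.87 against cerebellum but 0.18 against liver and 0.01 against heart. Of squamous epithelial genes 5 of 13 were lower and none higher. Their median was -4.34 against skin and -4.67 against stomach but 0.12 against brain cortex and 0.04 against heart, so the differences from the mean rest on a few tissues. Pkp1, a desmosome protein, fell by 2.92 (SE 0.28), being well above background on 1 of the lung arrays.

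In the muscle list 8 of 22 genes were lower (7.56% of all probes), among them Actn3 and Tnni1 of skeletal fibres, which fell by 2.59 and 2.17, and 3 were higher, a share near the 12.0% of all probes. With median centring 4 were lower and the median moved from -0.60 to -0.39. Tnnt2, cardiac troponin T, had levels of 3.23 and 3.81 in lung, next to 3.89 and 4.06 in heart and 3.69 and 3.63 in bladder, and the median over the other arrays was 0.14. Its difference was 3.26 (SE 0.34, adjusted p = 3.79e-07), and lung, heart and bladder overlapped or nearly so. Actn2, an α-actinin of the sarcomere, had 2.90 and 3.43 in lung and up to 4.93 in heart, and rose by 1.19 (SE 0.40, adjusted p = 0.0208). Csrp1, a protein of smooth muscle, rose by 1.69. Among the genes called lower, Myl1 had 0.0 and -0.04 and Mstn 0.22 and 0.19 on the lung arrays, while Des, desmin, which was not called, had 1.17 and 1.80. The part of heart or muscle RNA in these values was not tested.

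Of 32 cell division genes 1 was higher, Tubb5, and 1 lower, Polq, below the 12.0% and 7.56% of all probes, and neither was called with median centring. Their median level was -3.13 and -2.93 in lung, far below the dividing cells of the reference, and their median difference from the other tissues was -0.51, or -0.18 with median centring. Of red blood cell genes only Bpgm and Slc25a37 were measured, and neither was called (differences -0.81 and 0.07).

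Of the single tissues, bladder was most like lung. The mean Pearson r between lung and bladder arrays was 0.69, taken over probes that are not independent of each other, and 3450 probes differed past the threshold (16.4%). Fat followed with a mean r of 0.61, with single array pairs from 0.56 to 0.66. Stomach (0.58), heart (0.56) and skin (0.55) came after it. Brain cortex was least like lung, at 0.40, and muscle gave most calls, 4432 higher (21.1%) and 2968 lower (14.1%). These comparisons share the lung arrays, so they are not independent of each other.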

How the data were processed

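Whole tissue RNA was hybridised in Cy3 against a universal mouse reference in Cy5 on 30 arrays of 60-base oligonucleotide probes, with no dye swap. Per the file headers, the deposited scanner files hold spot intensity of both channels, extracted with Agilent Feature Extraction 9.5.1.1. They also hold a log10 ratio of Cy5 over Cy3, which the authors deposited and which was not used here, and detection and saturation flags (a yes or no score that the authors' scanner software deposited). The authors' value table holds log10 values, which matched the log10 Cy3 level adjusted for the reference of the same spot (slopes 0.998 and -0.997 over 11670 bright probes, R2 1.00). Its column medians were 2.498 to 2.647 and it was used as an alternative. The scale and the direction follow from that match. The genome build of the array design is not given in the sources used here. The series table has 0 columns that could not be assigned to an array.

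Of 43451 spots, 42034 were noncontrol, for 42006 probes. Backgrounds were corrected with normexp (offset 50), arrays were normalized by loess on log2(Cy3/Cy5), and spots of 1 probe were averaged (limma 3.58.1, R 4.3.3). Of the 25030 probes of the value table, 21026 were well above background in Cy3 on both arrays of at least 1 tissue, and 21025 could be tested. Missing values (outlier spots, 174 probes) were left out of the fits. Between 66.0% and 70.2% of probes were well above background on the lung arrays and 0 were saturated. The number of arrays limits the precision, as each tissue has 2. One coefficient per tissue was fitted by lmFit and eBayes with 15 residual degrees of freedom, and lung was set against the mean of the other 14 tissues and against each of them. Tests were two-sided, with Benjamini-Hochberg adjustment over all tested probes of a comparison. "At least" folds set the brighter group against the dimmer group's own signal or, where that is larger, the dimmest signal well above background on the array.

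Symbols came from the supplementary probe lists of the study and name 5622 probes of the table. Of 5971 symbols, 3619 are current in RefSeq, 1866 are synonyms and were updated, 476 match neither and 10 match several genes. A gene is represented by its brightest probe. Genes named first are the 20 largest rises with both lung arrays above all others and the 10 largest falls with both below. The comparison, the 18 gene lists and the tests were chosen with earlier results of these data known. A few genes that are counted in these groups are not reported here by name or value. The steps were tested on simulated data with known changes. Alternatives covered background correction, normalization, the filter, the thresholds, the authors' table, each array left out, and slide, scan day and replicate number as blocks.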

Additional observations from a re-analysis of the deposited data

Results flagged for a closer look

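Of the array's probes outside the authors' value table, 13619 passed the same filter and were tested in the same way. In lung 962 of them (7.06%) were higher and 605 (4.44%) lower than in the mean of the other 14 tissues, and 309 were called higher with both lung arrays above all other arrays. They have no symbol here.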

How the results depend on the processing

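The count of probes lower in lung, 1589, was 2610 with the processed signals and no loess, 806 with median centring and 2510 with the authors' table. Higher counts stayed within 1.5 times of 2527 under these. At a log2 difference of at least 2 there were 906 higher and 193 lower probes and 60 list members against 190, and past the threshold against each of the 14 tissues 306 higher and 4 lower. Fits to the 4 arrays of a pair alone gave 2232 probes for large intestine against 6116, and 642 for fat against 4108. The cause of these shifts was not tested, beyond the stricter criterion or the fewer arrays that some of them apply. Leaving out each array in turn gave 2340 to 2584 higher, 1320 to 1633 lower, 30 to 30 named genes called and 174 to 175 list members (without a lung array). Whether same-numbered arrays came from the same animal could not be settled. Same-numbered arrays of 2 tissues had correlations of deviations from -0.25 to 0.34 (33 of 105 above 0.1). The median was 0.05, and the highest was with lung. Slide and scan day also vary between the arrays, so these values do not decide it. The fit with the replicate block gave 2528 higher and 1591 lower. Slide as a random block gave 2522 and 1535 and scan day 2641 and 1579, a fixed slide block could not be estimated, and a fit with scan day as a fixed block over 7 tissues, chosen after seeing the data, gave 2806 and 2058. All 30 named genes were called under each scaling, block and left-out array. Within the slides of the lung arrays, values were compared with no test run. Lung replicate 1 shares its slide only with brain cortex replicate 2, and lung replicate 2 only with the eyes arrays. Against those arrays, 28 and 27 of the 30 differed by at least 1. None of the 30 named genes changed sign under the alternatives in which they were compared. The other called results were compared by count only.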

Other observations

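The largest differences of the table belong to probes without a symbol. Probe Z00023985-1 had levels of 8.82 and 9.70 on the lung arrays against at most 0.81 elsewhere, a difference of 8.92 (SE 0.15), and Z00033798-1 had a difference of 7.89, with 5.99 and 6.27 in lung and up to 6.91 elsewhere. Z00019741-1 fell by 5.43 on the log2 scale, and Z00055553-1, which was below all other arrays in lung, fell by 3.40.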
